A study of Homo sapiens with 2 samples.

Results

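The cells with the highest share of C1orf56, PHKG1 and LRRC75A transcripts were examined in a pooled sgRNA screen of PC9 cells. They are 203 of 10142 cells, chosen by a score: the summed unique molecular identifiers (UMIs, 1 for each captured transcript) of these 3 genes divided by all gene UMIs of the cell. The 2% of cells with the highest score are called members here, and the other 9939 cells are the comparison. Before that, barcodes under 1000 gene UMIs or 500 genes, or above 20% mitochondrial UMIs, had been dropped, 705 of 10847. Levels are given as CPM, the UMIs of a gene per 1000000 gene UMIs summed over a group of cells.

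PC9 is a human lung adenocarcinoma line that grows on an activating mutation of the receptor EGFR. The cells carried lentiviral sgRNAs, delivered with polybrene at 8 ug/ml at an infection rate near 40%, and the infected cells were enriched with 1 ug/ml puromycin. The 36 sgRNAs target 6 genes (ATF4, CTCF, CTNNB1, JUN, MYC and PGAM1) or are the 4 non-targeting controls, where the labels name 4 targets, and members and other cells come from this 1 pool. The labels speak of knockout but also of dCas9, which binds DNA without cutting it, and of lowering expression, so how the genes were perturbed is uncertain, and they give both day 7 and day 8. The expression and sgRNA libraries share their barcodes and form 1 joint matrix with 136071789 gene UMIs and 158909 sgRNA UMIs. All 10847 barcodes are distinct. All cells thus come from 1 sample, and differences between cells carry no replicate error: the intervals given are exact 95% Poisson or binomial (Clopper-Pearson) intervals that cover counting error only.

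PHKG1 is the catalytic gamma subunit of phosphorylase kinase, which switches on the breakdown of glycogen and is best known from muscle. C1orf56, also named MENT, and LRRC75A, a leucine-rich repeat protein, are less well studied. Transcripts of a cell differ in where they reside: long non-coding RNAs such as MALAT1 and NEAT1 stay in the nucleus, in speckles and paraspeckles, ribosomal protein mRNAs are in the cytosol, and MT- transcripts are inside mitochondria. The balance of these classes is often used to judge whether a barcode holds a whole cell.

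The values that chose the members were as follows. Scores of members ran from 381 to 3373 CPM, with a median of 668. The last members held 2 UMIs of the score genes among 5246 gene UMIs, 3 among 7863 and 3 among 7848. The first cells outside held 3 among 7925, 5 among 13375 and 3 among 8029, so the scores run on past the threshold without a gap. C1orf56 summed to 144 CPM (interval 123 to 168) in members and 10.2 in other cells. PHKG1 summed to 189 CPM in members and 13.3 in other cells. LRRC75A summed to 351 CPM in members and 27.6 in other cells. These differences follow from the choice.

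The counts behind the score were small. Of the members, 31 held 1 UMI of the score genes, 39 held 2, 33 held 3 and 100 held 4 or more, up to 18. Of the other cells, 5377 (54.1%) held none, 2982 held 1, 1112 held 2, 349 held 3 and 119 held 4 or more, up to 7. Among members, 63 held UMIs of all 3 genes, 81 of 2 and 59 of 1.

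Members were shallower than other cells, in part because of the score. Their median was 5246 gene UMIs (quartiles 1860.5 and 7837.5), against 12322 in other cells. In a cell with 2623 gene UMIs or fewer, 1 UMI of the score genes was enough: all 66 such cells with a UMI of these genes were members, of 132 kept cells that shallow. The other 137 members were deeper. Members made up 56 of 103 cells (54.4%) with 1000 to 2000 gene UMIs and 29 of 81 (35.8%) with 2000 to 4000. They were 71 of 746 (9.52%) with 4000 to 8000, 46 of 6926 (0.664%) with 8000 to 16000, and 1 of 2286 (0.0437%) above 16000. The description of these cells as low in depth thus holds for many of them and not for all. Summed over every kept cell, members or not, the score genes gave 750 CPM at 1000 to 2000 gene UMIs, then 308, 107, 57.6 and 45.2 CPM in the deeper classes in turn. These sums do not depend on the threshold.

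**Figure D1:**
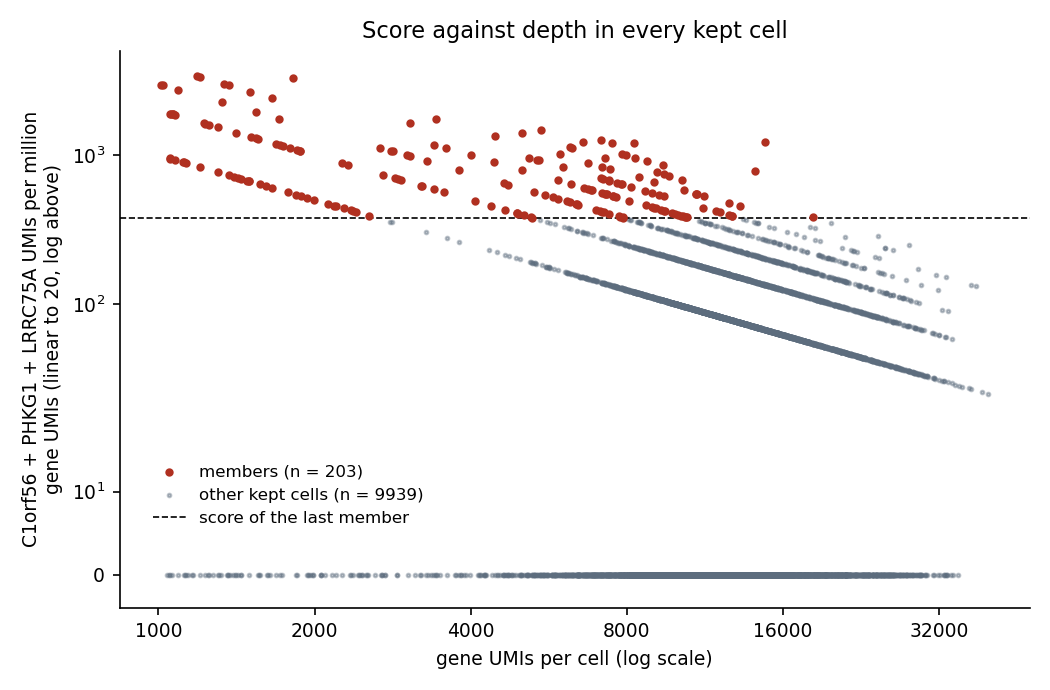
Score (C1orf56, PHKG1 and LRRC75A UMIs of a cell as CPM, linear to 20 and log above) against gene UMIs per cell (log scale), 1 point a cell. The 203 members lie at or above the dashed line at 381 CPM, the slanting rows are cells with the same whole number of score UMIs, and 5377 other cells lie at 0.

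The 3 score genes went together in cells chosen without the gene in question. When the 2% of cells were chosen on PHKG1 and LRRC75A alone, C1orf56 summed to 95.8 CPM (78.8 to 115) in the chosen cells, against 10.6 in the rest and 16.0 in the rest brought to the same depth. PHKG1, in cells chosen on C1orf56 and LRRC75A, summed to 120 CPM (102 to 141), against 13.8 in the rest and 22.3 at the same depth. LRRC75A, in cells chosen on C1orf56 and PHKG1, summed to 168 CPM (148 to 191), against 28.8 in the rest and 47.1 at the same depth. At equal depth the left-out gene was thus 5.97-fold, 5.40-fold and 3.57-fold higher in the chosen cells for C1orf56, PHKG1 and LRRC75A in turn. Equal depth here means that the other cells were sorted into 20 bins by gene UMIs and weighted to the members' UMIs in each bin. The 3 genes lie on chromosomes 1, 7 and 17.

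Each score gene overlaps a neighbour in the RefSeq annotation of GRCh38.p14. C1orf56 (chromosome 1, 151047751 to 151051420) shares 436 bases with CDC42SE1. PHKG1 (chromosome 7, 56080295 to 56092952) shares 7652 bases with SUMF2, and LRRC75A (chromosome 17, 16441577 to 16492193) shares 29072 bases with the host RNA SNHG29. C1orf56 lies on the plus strand and CDC42SE1 on the minus strand. No source used here says whether counting used the strand, so how reads in the shared stretches were assigned is not known here. CDC42SE1, a small effector of the GTPase CDC42, summed to 68.0 CPM in members, against 26.1 in other cells and 26.4 at equal depth. SUMF2 summed to 183 CPM in members, against 143 in other cells and 154 at equal depth. SNHG29 summed to 2198 CPM in members, against 1619 in other cells and 1613 at equal depth, a difference of 1.36-fold. Of the genes next to them without overlap, CCT6A had 0.83 times and MLLT11 0.94 times the level of other cells, but 1.03 and 1.40 times that of other cells at equal depth, so both directions turned.

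Beyond the score genes, few transcripts set the members apart. With at least 10 UMIs expected in the members, 8029 genes could be compared. Called means at least 2-fold in 1 direction against all other cells and also against other cells at equal depth. This gave 14 genes (0.174%) higher in members and 144 genes (1.79%) lower in members. The median log2 fold over all genes compared was -0.07, and -0.04 at equal depth, and 42.1% of genes lay above 0. The counts differ in weight: the 14 higher genes had a median of 45.5 UMIs in members, and the 144 lower genes had a median of 7, with a range of 0 to 75. Against all other cells alone, 28 genes were 2-fold higher and 199 were 2-fold lower in members. With no replicates, none of these counts has a test.

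CTNNB1, which encodes beta-catenin, the adhesion protein and effector of Wnt signalling, was at the top. It summed to 167 CPM (144 to 193) in members, against 41.9 in other cells and 46.4 at equal depth, folds of 3.98 and 3.60. B4GALT1, a galactosyltransferase of the Golgi, summed to 134 CPM (113 to 158) in members, against 35.9 in other cells and 40.4 at equal depth. These 2 genes, with 184 and 148 UMIs in members, carry the largest counts of the 14. TFAP2C, an AP-2 transcription factor, summed to 58.0 CPM in members, against 19.9 in other cells and 19.4 at equal depth. EPPK1, the cytoskeletal linker epiplakin, summed to 48.9 CPM in members, against 18.5 in other cells and 19.0 at equal depth. TMEM120B, a membrane protein, summed to 55.3 CPM in members and 17.2 in other cells, but 25.9 at equal depth, so its fold was 3.22 against all and 2.13 at equal depth. Of the others, ZC3H4, RIN2, LYPD6B, WIZ, RTL10, USP6NL and C1orf174 had 22 to 37 UMIs in members and folds of 2.01 to 2.42 against all other cells. Their intervals reach down close to the level of the other cells, as the plot of the higher genes shows.

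**Figure D2:**
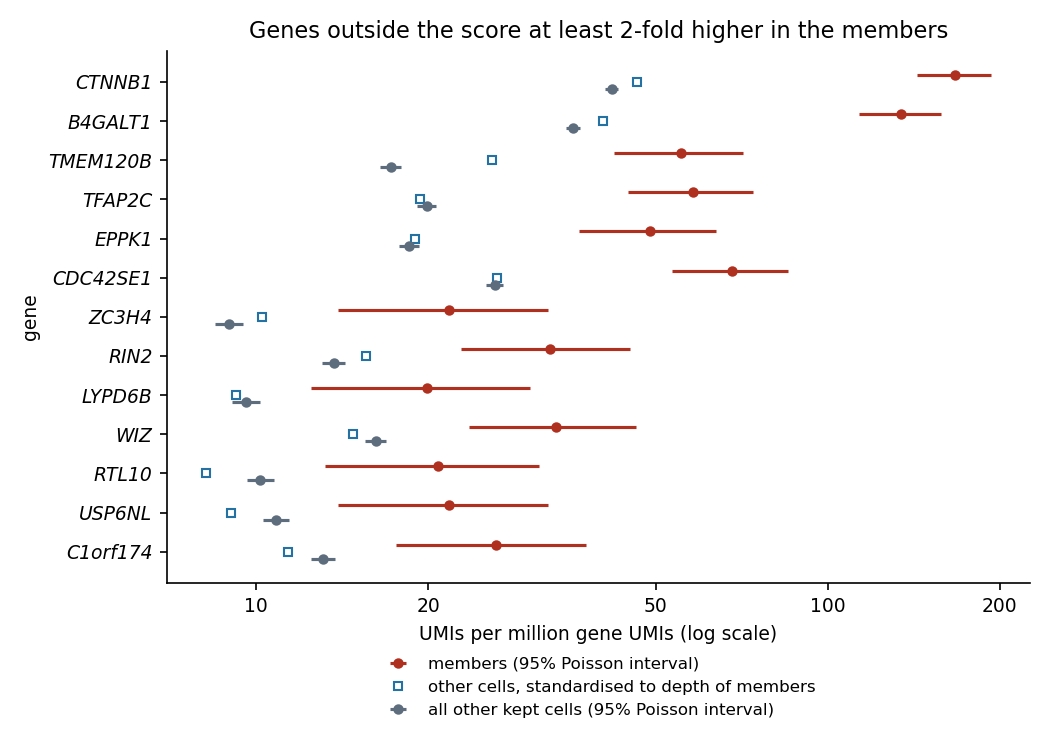
Level of 13 of the 14 genes outside the score that were at least 2-fold higher in members, in CPM (log scale), in members (red, 95% Poisson interval), other cells standardised to the depth of members (open squares) and all other kept cells (grey, 95% Poisson interval). CTNNB1 and B4GALT1 stand furthest to the right of the other cells, at 167 and 134 CPM.

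The sequences upstream of C1orf56, PHKG1 and the 2 other genes with the largest counts are shown because these genes were high in the same cells. They are the 250 bases before the annotated start, from RefSeq on GRCh38.p14, written along the strand of the gene. Capitals mark the GC box (GGGCGG) and the AP-2 motif (GCCNNNGGC), each on both strands, and where they overlap the capitals run together. The positions are chr1:151047501-151047750 (plus strand) for C1orf56, chr7:56092953-56093202 (minus strand) for PHKG1, chr3:41199255-41199504 (plus strand) for CTNNB1 and chr9:33167337-33167586 (minus strand) for B4GALT1.
C1orf56: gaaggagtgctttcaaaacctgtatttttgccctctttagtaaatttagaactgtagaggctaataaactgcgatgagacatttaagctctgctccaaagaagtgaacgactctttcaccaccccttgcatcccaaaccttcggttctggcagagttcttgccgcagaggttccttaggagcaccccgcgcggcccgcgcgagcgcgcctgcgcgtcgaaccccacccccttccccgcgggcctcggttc
PHKG1: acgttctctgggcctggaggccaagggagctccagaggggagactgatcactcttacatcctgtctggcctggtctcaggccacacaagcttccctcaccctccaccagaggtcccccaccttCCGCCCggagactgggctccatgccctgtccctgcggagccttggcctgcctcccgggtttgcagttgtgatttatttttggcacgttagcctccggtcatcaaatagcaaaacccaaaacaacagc
CTNNB1: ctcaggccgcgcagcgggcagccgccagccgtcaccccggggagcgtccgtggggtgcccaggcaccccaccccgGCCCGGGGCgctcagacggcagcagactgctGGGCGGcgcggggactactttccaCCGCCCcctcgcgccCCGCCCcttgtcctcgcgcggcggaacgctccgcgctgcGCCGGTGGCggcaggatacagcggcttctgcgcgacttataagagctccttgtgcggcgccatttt
B4GALT1: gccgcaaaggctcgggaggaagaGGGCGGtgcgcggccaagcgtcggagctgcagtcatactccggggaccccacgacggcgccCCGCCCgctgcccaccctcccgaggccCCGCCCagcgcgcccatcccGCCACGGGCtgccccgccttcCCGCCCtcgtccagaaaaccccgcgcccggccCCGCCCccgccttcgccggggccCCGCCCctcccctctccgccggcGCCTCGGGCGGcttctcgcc
C1orf56 held none of the motifs searched, PHKG1 held 1 GC box, CTNNB1 3 and B4GALT1 7. CTNNB1 and B4GALT1 each held 2 AP-2 motifs. Of the score genes and the 13 higher genes named here, 12 had a promoter in the table. Among these, 8 held a GC box and 4 an AP-2 motif, against 42.3% and 19.7% of 27305 promoters. The TATA box (TATAAA) was in 1 of 12, the CCAAT box in 3, the E-box (CACGTG) in 1 and the CRE (TGACGTCA) in 1, against 11.1%, 33.0%, 6.49% and 1.77% of all promoters. GC content of the 4 printed sequences ran from 55.2% in C1orf56 to 80% in B4GALT1, against a median of 58% over all promoters. No promoter of LRRC75A, TFAP2C, EPPK1 or RIN2 was compared.

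The higher level of CTNNB1, B4GALT1 and the sum of the 14 genes was also seen within each of the 4 depth classes up to 16000 gene UMIs. The 14 genes were picked for their fold in these same cells, so their sum is a description and no independent evidence. It was 974 CPM (770 to 1216) in members and 456 (310 to 648) in other cells at 1000 to 2000 gene UMIs. It was 1003 in members and 396 in other cells at 2000 to 4000, 899 in members and 300 in other cells at 4000 to 8000, and 733 in members and 302 in other cells at 8000 to 16000. CTNNB1 summed to 193 CPM in members and 48.3 in other cells at 4000 to 8000 gene UMIs, and to 134 in members and 42.0 in other cells at 8000 to 16000. B4GALT1 summed to 135 in members and 40.9 in other cells at 4000 to 8000, and to 127 in members and 35.5 in other cells at 8000 to 16000. The lower-count genes among those named were not higher in every class. EPPK1, RIN2, LYPD6B and WIZ were not higher in members at 1000 to 2000 gene UMIs, nor were TMEM120B, RTL10, LYPD6B and USP6NL at 2000 to 4000, on 0 to 2 UMIs each in members. RTL10 was also not higher at 8000 to 16000, where it summed to 8.496 CPM in members (4 UMIs) and 10.5 in other cells.

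Since the sgRNAs target CTNNB1, its level was also read by target. In cells assigned to a CTNNB1 sgRNA, CTNNB1 summed to 84.4 CPM in the 17 members (9 UMIs) and 25.4 in the 1535 other cells. In cells assigned to a non-targeting sgRNA it summed to 187 CPM in the 6 members (7 UMIs) and 46.8 in the 694 other cells. Members with an sgRNA of CTCF, JUN or ATF4 had 273, 210 and 120 CPM in turn, against 48.5, 47.0 and 47.4 in other cells with the same target. The 142 members with no single sgRNA had 168 CPM, against 42.5 in the 4444 other cells of that kind. In each of these 6 groups, CTNNB1 was thus higher in members, with few UMIs in all but the last. CTNNB1 was picked for its fold in these same members, so the split by target is a description and no independent evidence. The only member with a PGAM1 sgRNA had no CTNNB1 UMI.

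Cells of similar depth were also sorted by their number of score UMIs. Among cells with 8000 to 16000 gene UMIs, 3799 held 0 UMIs of the score genes, 2064 held 1, 746 held 2, 222 held 3, 57 held 4 and 38 held 5 or more. Over these classes in turn, CTNNB1 summed to 39.6, 44.7, 44.7, 43.2, 74.5 and 111 CPM. B4GALT1 summed to 31.6, 37.9, 45.1, 39.3, 78.8 and 92.6 CPM. In the last 2 classes 16 of 57 and 30 of 38 cells were members, and both genes were picked for their fold in members, so their higher values there follow in part from the choice. Cells with 4 or more score UMIs that missed the threshold showed a smaller difference. Their sum of the 14 genes was 392 CPM (345 to 443) in 49 cells at 8000 to 16000 gene UMIs, against 289 in cells with 0 score UMIs. Above 16000 gene UMIs it was 346 CPM (318 to 377) in 70 such cells, against 277 in cells with 0.

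**Figure D3:**
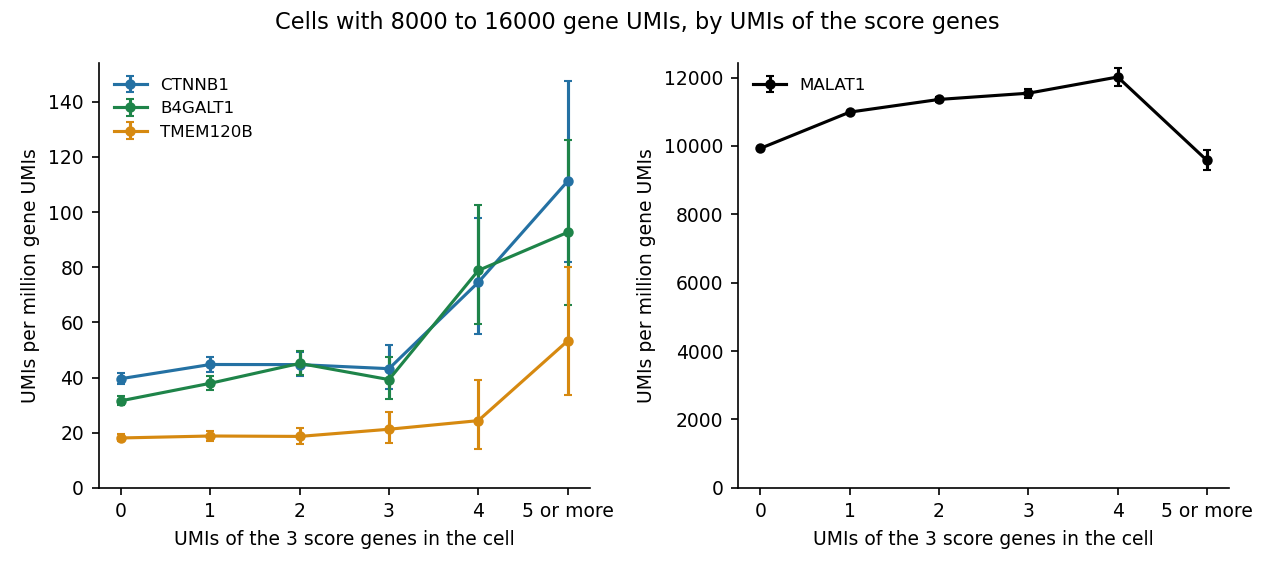
Level in CPM (95% Poisson intervals) against the number of score-gene UMIs, in cells with 8000 to 16000 gene UMIs, for 3 of the higher genes (left) and MALAT1 (right). CTNNB1 ran between 39.6 and 44.7 CPM up to 3 score UMIs and reached 111 at 5 or more. MALAT1 summed to 9929, 10989, 11360, 11543 and 12017 CPM at 0 to 4 score UMIs in turn, and to 9575 at 5 or more. In that last class 30 of 38 cells were members.

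Nuclear-retained transcripts were not called higher in members. MALAT1 summed to 9134 CPM (8956 to 9314) in members, against 9432 in other cells and 13049 at equal depth. NEAT1 summed to 978 CPM in members, against 1022 in other cells and 1524 at equal depth. KCNQ1OT1, the antisense RNA of an imprinted domain, summed to 168 CPM in members, against 188 in other cells and 276 at equal depth. The median member was lower still in MALAT1, at 5021 CPM, against 8018 in the median other cell. Depth classes differed: at 1000 to 2000 gene UMIs MALAT1 summed to 27053 CPM in members and 25264 in other cells. At 2000 to 4000 it summed to 7483 in members and 27723 in other cells, at 4000 to 8000 to 6463 in members and 10457 in other cells, and at 8000 to 16000 to 9103 in members and 10487 in other cells. The median cells ran otherwise below 4000 gene UMIs: they had 21682.5 CPM in members and 13158 in other cells at 1000 to 2000, and 3796 in members and 2999 in other cells at 2000 to 4000, where 1 other cell reached 316655. At 4000 to 8000 the medians were 2792 in members and 7005 in other cells, and at 8000 to 16000 they were 3217 in members and 8644 in other cells. Of 11 nuclear long non-coding RNAs compared, none was called in either direction, with a median log2 fold of -0.07, and -0.34 at equal depth. Of 32 genes of nuclear speckles or with detained introns, none was called either, with a median of -0.24, and -0.43 at equal depth. HNRNPH1, a splicing regulator, was the highest of these at 169 CPM in members, against 61.3 in other cells and 88.9 at equal depth. It was thus 2.75-fold higher against all other cells and missed the call at equal depth.

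**Figure D4:**
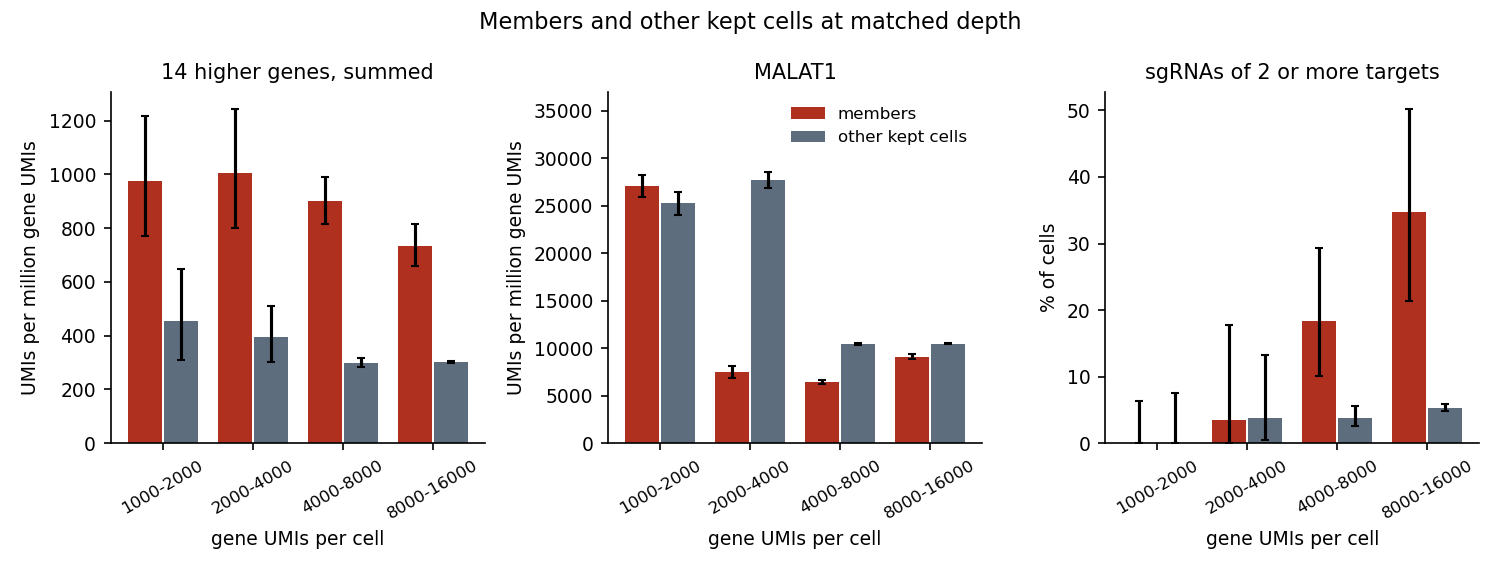
Sum of the 14 higher genes (left) and MALAT1 (middle), in CPM with 95% Poisson intervals, and share of cells with sgRNAs of 2 or more targets (right, 95% binomial intervals), by gene UMIs per cell, in members (red) and other kept cells (grey). At 2000 to 4000 gene UMIs MALAT1 summed to 7483 CPM in members and 27723 in other cells, while the median cells had 3796 in members and 2999 in other cells, and 34.8% of members and 5.32% of other cells at 8000 to 16000 held sgRNAs of 2 or more targets.

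No list of cytosolic or mitochondrial transcripts held a called gene, but their shares differed by depth class. All 79 cytosolic ribosomal protein genes were compared, none was called, and their median log2 fold was 0.12, with 61 of 79 above 0. Ribosomal protein UMIs made up a median of 24.2% of a member and 23.1% of another cell. At 1000 to 2000 gene UMIs the medians were 22.3% in members and 23.0% in other cells, and 24.2% and 24.9% at 2000 to 4000. They were 25.7% in members and 24.5% in other cells at 4000 to 8000, and 26.9% and 23.0% at 8000 to 16000. Of 13 mitochondrially encoded genes, none was called, with a median of 0.17. MT- UMIs made up a median of 10.3% of a member and 10.6% of another cell. At 1000 to 2000 gene UMIs the medians were 6.89% in members and 9.34% in other cells, and 12.4% and 10.0% at 2000 to 4000. They were 11.9% in members and 11.4% in other cells at 4000 to 8000, and 9.61% and 10.9% at 8000 to 16000. Of 35 nuclear genes of the respiratory chain, none was called, with a median of -0.15, and of 24 abundant cytosolic mRNAs, none was called, with a median of -0.29. The sum of these 24 mRNAs went the other way, at 69636 CPM in members and 60101 in other cells. Thinned to 1000 UMIs, a member showed a median of 576 genes and another cell 592. Without thinning the medians were 1919 genes in members and 3402 in other cells. By depth class, thinned cells of 1000 to 2000 gene UMIs showed 628 genes in members and 609 in other cells. In the deeper classes up to 16000 gene UMIs, thinned members showed 558, 557 and 579 genes, against 577, 572 and 590 in other cells.

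Cell cycle genes had medians below 0 against all other cells, but not at equal depth. Of 26 G2/M genes, none was called, with a median log2 fold of -0.52 against all and 0.08 at equal depth. Of 21 G1/S genes, 1 was called lower, with medians of -0.43 and 0.01. That gene, MCM3, a subunit of the replicative helicase, rested on 7 UMIs in members and summed to 6.34 CPM, against 18.1 in other cells and 18.2 at equal depth. TOP2A, the topoisomerase of dividing cells, summed to 56.2 CPM in members, against 84.1 in other cells and 45.6 at equal depth. The sign of this comparison thus turned with depth.

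Most lists of stress and secretory genes had medians below 0. Of 13 heat shock genes, none was called, with a median log2 fold of -0.50, and -0.36 at equal depth. DNAJB1 alone lay above 0, at 75.2 CPM in members, against 69.0 in other cells. HSP90AA1, a cytosolic chaperone, summed to 1821 CPM in members, against 2714 in other cells and 2533 at equal depth. HSPA5, the chaperone BiP of the endoplasmic reticulum, summed to 68.0 CPM in members, against 137 in other cells and 192 at equal depth. It was the only 1 of 27 secreted or membrane genes called, and that list had a median of -0.17. Of 15 genes of the integrated stress response, none was called, with a median of -0.28, and of 15 immediate early genes, none was called, with a median of 0.01. GDF15, a secreted stress factor, summed to 70.7 CPM in members, against 127 in other cells and 223 at equal depth. Of 25 long genes of chromatin and the nuclear envelope, none was called, with a median of -0.07.

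**Figure D5:**
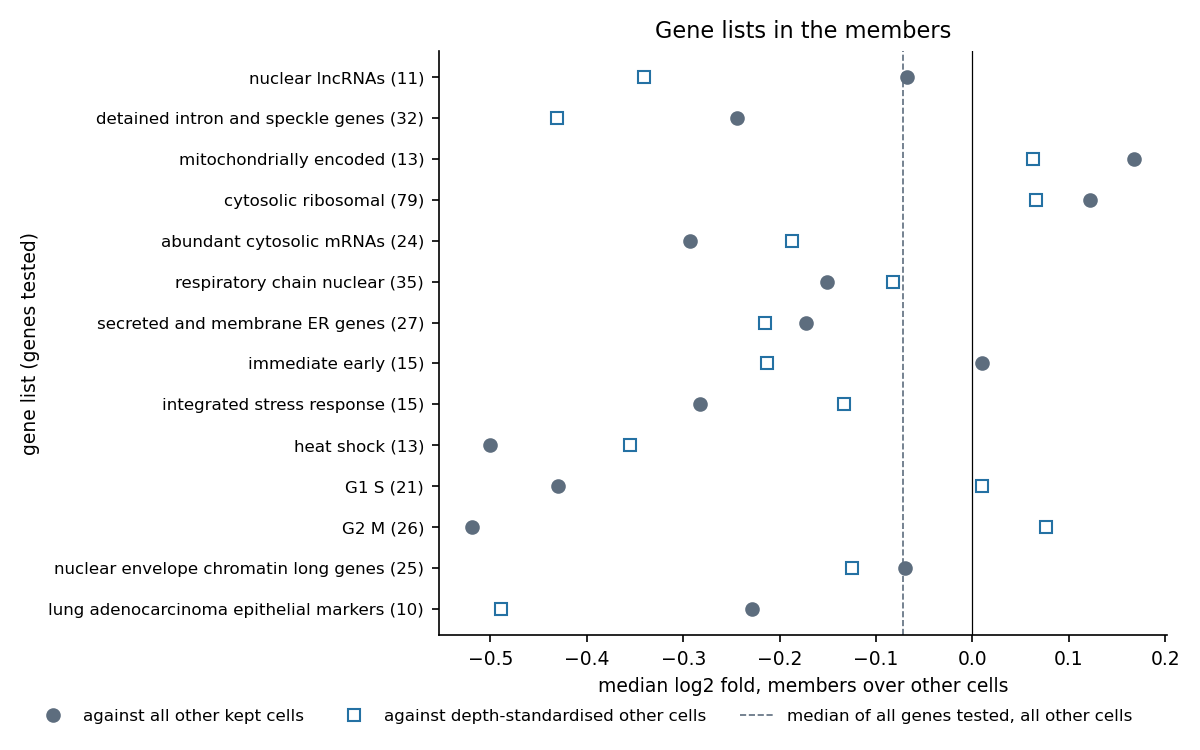
Median log2 fold of members over other kept cells for the gene lists shown (number of genes compared in brackets), against all other cells (filled) and against other cells at equal depth (open), with the median of all genes compared, -0.07, dashed. G2/M genes had -0.52 against all and 0.08 at equal depth, and nuclear long non-coding RNAs had -0.07 and -0.34.

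The 15 lowest of the called genes were nearly all at the edge of detection in members. AKAP12, a scaffold of protein kinase A, had the most UMIs of them, 19, and summed to 17.2 CPM in members, against 88.7 in other cells and 280 at equal depth. FABP5, a fatty acid binding protein, had no UMI in members, against 16.4 CPM in other cells, and was at least 6.04-fold lower in members when 3 UMIs are taken as the floor over the group. Counted by cells, none of 408 kept cells with a FABP5 UMI was a member, and none of 206 with 5 or more. With 3 cells taken as the upper limit, rather than an exact interval, the share could be up to 0.735% and 1.46% in turn. These cells had medians of 10251.5 and 10020 gene UMIs. Members made up 0.664% of all kept cells at 8000 to 16000 gene UMIs and 9.52% at 4000 to 8000. FABP5 summed to 13.7 CPM in other cells at 8000 to 16000 and 107 CPM at 4000 to 8000, with no UMI in members of either class. The part of depth in this absence was not tested. NPW, a neuropeptide precursor, had 3 UMIs in members (2.72 CPM), against 22.4 CPM in other cells and 101 at equal depth. DPP3, MRPL39, COL6A1 and the other 9 genes had 1 to 9 UMIs in members. For FABP5, NPW and AKAP12 the level at equal depth lay above the level in all other cells, so other cells brought to the depth of the members carried more of these transcripts.

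Epithelial markers were present in members, and markers of other cell types were at or near 0. Of 11 epithelial markers of lung adenocarcinoma, 10 could be compared and none was called, with a median log2 fold of -0.23, and -0.49 at equal depth. KRT18, a keratin of simple epithelia, summed to 4600 CPM in members, against 4434 in other cells, and KRT8 to 1149 in members, against 1614 in other cells. EPCAM, the epithelial adhesion molecule, summed to 172 CPM in members, against 269 in other cells. NKX2-1, the lung lineage factor, had no UMI in members. All 7 fibroblast markers had none in members, the 8 leukocyte markers summed to 5 UMIs and the 7 erythroid and endothelial markers to 2 UMIs. No doublet caller was run, and sgRNA content served to describe possible doublets.

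The sgRNA UMIs were not used by the score, but per gene UMI they share its denominator. Members held a median of 7 sgRNA UMIs, against 10 in other cells, and of 1.44 per 1000 gene UMIs, against 0.770 in other cells. Within depth classes the median count was 1 in members and 1 in other cells at 1000 to 2000 gene UMIs, 5 in members and 3 in other cells at 2000 to 4000, 11 in members and 5 in other cells at 4000 to 8000, and 13.5 in members and 9 in other cells at 8000 to 16000. Per 1000 gene UMIs the medians were 1.68 in members and 0.731 in other cells at 4000 to 8000, and at 8000 to 16000 they were 1.36 in members and 0.775 in other cells. A cell was counted as carrying sgRNAs of 2 or more targets when each had at least 5 UMIs, with non-targeting sgRNAs counted as a target. This held for 30 of 203 members (14.8%, interval 10.2 to 20.4) and 995 of 9939 other cells (10.0%). The gap was wider in the 2 classes from 4000 to 16000 gene UMIs: 13 of 71 members (18.3%, 10.1 to 29.3) and 3.85% of other cells at 4000 to 8000, and 16 of 46 members (34.8%, 21.4 to 50.2) and 5.32% of other cells at 8000 to 16000. In both classes the median member also held more sgRNA UMIs, on which this count depends. Below 4000 gene UMIs a gap could hardly be seen, since few cells held enough sgRNA UMIs to be counted. The upper quartile was 3 sgRNA UMIs in both groups at 1000 to 2000, and 9 in members and 12.25 in other cells at 2000 to 4000. At 2000 to 4000 the share was 1 of 29 members (3.45%) and 2 of 52 other cells (3.85%). At 1000 to 2000 gene UMIs it was 0 of 56 members, which allows up to 6.38%, and 0 of 47 other cells, which allows up to 7.55%. Among the other cells, the share was 26.3% above 16000 gene UMIs, a depth that only 1 member reached. Cells without any sgRNA UMI were 12.3% of members and 11.03% of other cells. By class they were 30.4% of members and 36.2% of other cells at 1000 to 2000 gene UMIs, 13.8% of members and 28.8% of other cells at 2000 to 4000, 2.82% of members and 21.5% of other cells at 4000 to 8000, and 4.35% of members and 10.8% of other cells at 8000 to 16000. Without the cells that carried sgRNAs of 2 or more targets, 11 genes were higher and 96 lower in members. With fewer members the filter of 10 expected UMIs keeps fewer genes than the 8029. These counts thus do not compare directly with the 14 and 144 of all members. The part of doublets in the other differences was not tested.

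A cell was assigned to 1 sgRNA when that sgRNA reached 5 UMIs and made up 80% or more of all sgRNA UMIs in it. This held for 61 of 203 members (30.05%) and 55.3% of other cells. By target, members were 12 of 859 cells for ATF4, 14 of 1182 for CTCF, 17 of 1552 for CTNNB1, 11 of 836 for JUN, 0 of 94 for MYC and 1 of 333 for PGAM1, against 6 of 700 for non-targeting sgRNAs. The share of members was compared over sgRNAs with at least 20 cells, by a two-sided exact permutation test adjusted over the 6 targets by the Benjamini-Hochberg method. All sgRNAs shared 1 culture, so the p-values reflect how much sgRNAs differ within it and nothing more. The share was 1.33 ± 0.678% for ATF4 (SD, n = 6), 1.25 ± 1.21% for CTCF (n = 6), 0.893 ± 0.930% for CTNNB1 (n = 6) and 1.35 ± 1.28% for JUN (n = 6), against 1.13 ± 0.981% for non-targeting sgRNAs (n = 4). The exact permutation test gave an adjusted p of 0.92 for each of these 4 targets. PGAM1 had 0.185 ± 0.370% (n = 4), with an exact p of 0.11, adjusted p = 0.69, and was below the mean of the controls in 4 of 4 sgRNAs. Control sgRNAs 1, 2 and 3 were also below that mean, at 0.667%, 0.610% and 0.629%, and control sgRNA 4 had 2.60%. PGAM1 sgRNA 4, at 0.741%, lay above control sgRNAs 1, 2 and 3. MYC had 0% in both sgRNAs (n = 2), with an exact p of 0.27, adjusted p = 0.80, in a design that cannot reach below 0.067. No target passed the threshold of 0.05. For PGAM1 the permutation test cannot reach below 0.029 before adjustment, so PGAM1 alone could not pass after adjustment over the 6 targets.

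The sum of the 14 higher genes was above that of other cells for each target with 6 or more members. The genes were picked for their fold in these same members, so the sums by target are a description and no independent evidence. It was 645 CPM in members with an ATF4 sgRNA and 311 in other cells with one, 831 in members and 308 in other cells with CTCF, 628 in members and 282 in other cells with CTNNB1, and 858 in members and 315 in other cells with JUN. With non-targeting sgRNAs it was 1014 (717 to 1392) in 6 members and 317 in other cells. The only member with a PGAM1 sgRNA had no UMI of the 14 genes.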

How the data were processed

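One joint 10x Genomics matrix of 1 PC9 culture was used. The authors deposited raw UMI counts per feature and barcode, that, per the file headers, came from Cell Ranger 6.1.2. The build was hg38, per the submitters' processing notes. No source used here states filters before deposit, strand settings or doublet removal. Kept cells had 1011 to 39824 gene UMIs, with a median of 12239.5. Of the gene identifiers, 36366 of 36601 were matched in the reference names.

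The members, gene lists and tests were chosen with earlier results of these data known. Counts were summed over members and over other cells and divided by total gene UMIs. Other cells were also standardised to the members' depth in 20 bins. Genes with at least 10 expected UMIs were compared, and at least 2-fold in both comparisons was called. The genes named are the score genes, the 15 largest and 15 smallest folds among called genes (14 were higher, of which 1 is not reported here), called list genes, neighbours, MALAT1 and NEAT1. Others, such as HNRNPH1, GDF15, TOP2A and the list genes given as examples, were chosen after their values were seen. Genes per cell were compared after thinning to 1000 UMIs. Promoters are those of RefSeq, GRCh38.p14. The comparison was tested on simulated data. Alternatives included the share taken as members, the score genes, filters, scaling and sgRNA rules, and 3 were added after seeing the data: all other cells alone, members with at least 3 score UMIs, and cells without sgRNAs of 2 or more targets. Python 3.11.15, numpy 2.4.6, scipy 1.17.1, pandas 2.3.3 and matplotlib 3.10.9 were used.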

Additional observations from a re-analysis of the deposited data

Results flagged for a closer look

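In the share of members among the cells of each sgRNA, 6 groups of 4 to 6 sgRNAs were examined for a value far from the rest of its group. Non-targeting sgRNA 4 had 2.60% (2 of 77 cells), far above the other 3 control sgRNAs at 0.610% to 0.667%. PGAM1 sgRNA 4 had 0.741% (1 of 135 cells), while the other 3 PGAM1 sgRNAs had 0%. PGAM1 had 1 member in all, so the sgRNA that held it was bound to be set apart. The rate of about 1 in 20 groups set apart by chance need not hold for such shares, and 1 or 2 cells decide both values.

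Barcodes that the cell filter removed also carried the score genes. In the 183 barcodes with few UMIs or genes they summed to 561 CPM (458 to 681), and in the 522 removed for mitochondrial UMIs alone to 93.1 CPM (80.8 to 107), against 56.3 in kept cells. Of these barcodes, 60 (32.8%) and 47 (9.004%) reached the score of the last member. The 183 and 522 barcodes had medians of 794 and 3377 gene UMIs in turn. Up to 2623 gene UMIs 1 score UMI is enough to reach that score, so these shares depend on depth. The 14 higher genes summed to 480 CPM (385 to 591) in the barcodes with few UMIs or genes and 337 in those removed for mitochondrial UMIs, against 304 in kept cells.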

How the results depend on the processing

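No paired analysis was possible because the members and other cells are cells of 1 sample and the sgRNA numbers of different targets pair nothing. The counts of 14 higher and 144 lower genes became 5 and 57 with the top 5% as members, 4 and 82 without LRRC75A in the score, 50 and 259 against other cells at equal depth alone, 8 and 63 in cells assigned to 1 sgRNA, 1104 and 565 with no filter on low counts, and 1 and 10 with 50 expected UMIs, and 28 genes were higher against all other cells alone. The other settings tried kept both counts within 1.5 times. Where the members changed, the genes compared changed too, because the filter of 10 expected UMIs depends on the UMIs of the members. Counts under such settings are thus not shares of the same 8029 genes. The number of genes compared was 2867 with 50 expected UMIs and 23283 with no filter. The cause of each shift was not tested otherwise. The 14 higher genes were above other cells in 182 of 182 values given under the alternatives and at least 2-fold in 141. These genes were picked for their fold in largely the same cells, and some alternatives reuse the folds of the call. The values are thus a description and no independent evidence.

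Median log2 folds of lists, with no test, moved as follows. G2/M genes had -0.33 with the top 1%, -0.33 with the top 5%, -0.27 without PHKG1, -0.39 at most 10% MT- UMIs, -0.74 in cells with 1 sgRNA and 0.076 at equal depth. Ribosomal protein genes had 0.040 with the top 5%, 0.19 with median-of-ratios scaling, 0.18 with totals without mitochondrial, ribosomal and score genes, 0.066 at equal depth and 0.048 in cells with 1 sgRNA. Detained intron and speckle genes had -0.026 with the top 5% and -0.43 at equal depth. Heat shock genes had -0.13 with the top 5%. Nuclear long non-coding RNAs had -0.36 in members holding at least 2 score genes and -0.34 at equal depth. Mitochondrially encoded genes had 0.067 without LRRC75A and 0.062 at equal depth. Left-out score genes had log2 folds of 3.84 and 1.91 for C1orf56, 3.79 and 1.86 for PHKG1, and 3.40 and 1.496 for LRRC75A with the top 1% and 5%. The median depth of members was 2803 gene UMIs with the top 1%, 8699 with the top 5% and 2833 at most 10% MT- UMIs. At most 10% MT- UMIs, members had medians of 6.93% MT- UMIs, 25.8% ribosomal protein UMIs and 6760 CPM of MALAT1, which was 7752 with the top 5%.

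The share of members by target minus controls, in percentage points, passed no test and changed sign under several settings. ATF4 was -0.305 with 10 sgRNA UMIs and 90%, and -0.341 with 3 and 60%. CTCF was -0.531 with 3 and 60%, and -0.0519 at 4000 gene UMIs or more. JUN was -0.309 with 3 and 60%, and PGAM1 was 0.205 with the top 5%. Leaving out 1 sgRNA in turn gave 0.0056 to 0.698 for ATF4, -0.188 to 0.616 for CTCF, -0.521 to 0.258 for CTNNB1, -0.240 to 0.715 for JUN, -1.30 to -0.635 for MYC and -1.13 to -0.450 for PGAM1. Non-targeting sgRNA 4 alone turned the sign of CTNNB1, to 0.258.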

Other observations

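In other kept cells above 16000 gene UMIs, MALAT1 was higher with more score UMIs: it summed to 6691, 7596, 7996, 8710 and 10679 CPM in cells with 0, 1, 2, 3 and 4 or more UMIs of the score genes. Among all kept cells with 8000 to 16000 gene UMIs, MALAT1 summed to 9929, 10989, 11360, 11543 and 12017 CPM with 0 to 4 in turn. With 5 or more, where 30 of 38 cells were members, it was 9575 CPM. In the 49 cells of that depth with 4 or more that were not members it was 12499 CPM. sgRNA UMIs in that depth class summed to 1677 CPM (1557 to 1804) with 5 or more, against 1203 with 0.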
